A study of Mus musculus with 12 samples.

Results

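Liver transcripts of 6 genes of zinc handling were followed, the metallothioneins *Mt1* and *Mt2*, the zinc importers *Slc39a14* and *Slc39a5* and the exporters *Slc30a1* and *Slc30a10*. They were taken by symbol from the 38926 gene symbols that were counted in each library, and all 6 symbols were found in all 12 libraries. Liver RNA of wild-type and *Rev-erbα-/-* mice, male animals of 12 weeks on a 129Ola/C57BL6 background, was sequenced at ZT8 and at ZT20 (zeitgeber time, hours after lights on), with 3 mice in each of the 4 groups and 1 liver per library. The *Rev-erbα-/-* mice are a germline knockout of *Nr1d1*, the gene of the nuclear receptor REV-ERBα, a transcriptional repressor of the circadian clock, so that the receptor is missing from every tissue and not from the liver alone. The mice came from heterozygous breeding pairs, lived in light and dark cycles and had free access to food.

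Metallothioneins are small, cysteine-rich proteins that bind zinc and copper. Their genes are switched on by zinc through the metal-sensing factor MTF1, and in liver also by glucocorticoids and by the cytokines of the acute-phase response. Zinc transporters fall into 2 families of opposite direction. The ZIP proteins (genes named *Slc39a*) bring metal into the cytosol, and the ZnT proteins (genes named *Slc30a*) carry it out of the cytosol, across the plasma membrane or into organelles.

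*Mt1* and *Mt2* lie next to each other on mouse chromosome 8 (mm10, GENCODE vM21 annotation, plus strand). *Mt2* spans positions 94172664 to 94173568 and *Mt1* positions 94179082 to 94180327. The start of *Mt1* lies 5514 bases after the end of *Mt2*, and the main coding transcript of each has 3 exons. The coding sequences are printed here because the reads of the pair have to be told apart for all that follows. They are of equal length, 186 bases with the stop codon, and capitals mark the 38 positions at which they differ.
Mt1: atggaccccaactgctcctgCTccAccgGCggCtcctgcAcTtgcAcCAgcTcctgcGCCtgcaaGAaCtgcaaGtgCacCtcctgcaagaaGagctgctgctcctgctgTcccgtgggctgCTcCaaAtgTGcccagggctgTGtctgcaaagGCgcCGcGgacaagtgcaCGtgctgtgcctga
Mt2: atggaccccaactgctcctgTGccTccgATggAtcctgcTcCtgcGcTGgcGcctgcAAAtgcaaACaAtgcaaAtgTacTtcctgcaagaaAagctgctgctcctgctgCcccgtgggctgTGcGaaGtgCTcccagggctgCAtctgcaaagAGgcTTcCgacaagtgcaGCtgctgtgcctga
They were identical at 79.6% of positions, with no identical stretch above 20 bases. The reads had a maximal length of 75 bases, and 0 stretches of 75 bases were shared between the annotated transcripts of *Mt1* and *Mt2*.

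The promoters of the pair are shown because both transcripts moved together in the same livers. The windows run from 250 bases before to 50 bases after the RefSeq transcript start (GRCm38.p6, the same assembly as mm10), at chr8:94178839-94179138 for *Mt1* and chr8:94172368-94172667 for *Mt2*, both on the plus strand. Capitals mark matches, on either strand, to the core of the metal response element, the short site that MTF1 binds, searched as TGCACNC or TGCGCNC.
Mt1: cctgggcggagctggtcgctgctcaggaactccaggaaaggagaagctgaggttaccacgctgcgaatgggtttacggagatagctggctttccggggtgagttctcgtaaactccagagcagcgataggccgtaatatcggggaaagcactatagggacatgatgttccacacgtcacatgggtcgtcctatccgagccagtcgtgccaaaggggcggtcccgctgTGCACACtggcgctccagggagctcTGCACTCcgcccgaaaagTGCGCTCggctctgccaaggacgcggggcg
Mt2: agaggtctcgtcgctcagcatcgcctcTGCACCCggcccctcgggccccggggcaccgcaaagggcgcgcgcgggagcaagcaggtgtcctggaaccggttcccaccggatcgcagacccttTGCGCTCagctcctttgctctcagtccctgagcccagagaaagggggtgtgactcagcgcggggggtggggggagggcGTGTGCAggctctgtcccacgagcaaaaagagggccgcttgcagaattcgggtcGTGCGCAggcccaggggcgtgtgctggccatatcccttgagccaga
The *Mt1* window held 3 matches, which began at -23, 2 and 20 relative to the RefSeq start, and the *Mt2* window held 4, at -223, -128, -50 and 4. RefSeq and GENCODE place the starts differently. For *Mt2* the GENCODE start given above, 94172664, lies near the end of the window, so that all 4 matches begin before it. Of 32851 RefSeq promoter windows of 300 bases, 25.7% held at least 1 match, 1.97% held 3 or more and 0.517% held 4 or more. Among the transporters, the *Slc30a10* window held 3 matches, of which 2 overlapped, and the *Slc30a1* window held 2. Of the 2 *Slc39a5* windows, 1 held a single match and the other held 0. *Slc39a14* was not among the windows used here. The windows were also searched for other motifs. The core of the palindrome of the glucocorticoid receptor, ACANNNTGT, had 1 match in the *Mt1* window and 0 in the *Mt2* window. It was found in 6.85% of all windows. The E-box CACGTG, the half-site AGGTCA and the STAT palindrome TTCNNNGAA had 0 matches in both. All of these are letters found in a window and were not tested as binding sites.

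Between 17641809 and 26060192 reads per library were counted on genes, and 3 reads, taken as the detection floor, corresponded to 0.117 to 0.167 CPM (read counts relative to library size, scaled by the TMM method). The hepatocyte transcript *Alb* was abundant throughout, and the pancreatic transcripts *Prss1*, *Cpa1* and *Amy2a5* were at 0 reads in all 12 libraries. Of the other pancreatic transcripts listed, *Cela2a* was found in every library, with 3 to 25 reads and group means of 0.210 to 0.911 CPM. *Ctrb1* and *Ins2* had at most 3 and 2 reads in a library. Counts of *Nr1d1* did not separate the genotypes. At ZT8 they were 129, 96.2 and 75.3 CPM in wild-type and 63.0, 71.9 and 80.6 CPM in *Rev-erbα-/-* mice, and the groups overlapped. The counts are per gene symbol and not per exon, so that they do not check the genotype labels, which were used as given.

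The 3 wild-type livers of ZT8 were unlike each other, and this bears on every comparison that uses them. The summed level of 15 acute-phase genes, which the liver raises in inflammation, was 6436 CPM in mouse 1, 23368 CPM in mouse 2 and 29317 CPM in mouse 3. In the 9 other livers it lay between 6124 and 8309 CPM. Mice 2 and 3 thus stood apart from all other livers, and mouse 1 did not. The alignments to more than 1 place per counted read also differed, with 1.76, 2.89 and 3.28 in these 3 libraries and 1.24 to 2.72 in the others. The part of either in the results below was not tested. Fits were repeated without each of these mice in turn, and no fit left out both mouse 2 and mouse 3. Because whole liver was sequenced, fewer cells of a type and less RNA per cell cannot be told apart.

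**Figure D1:**
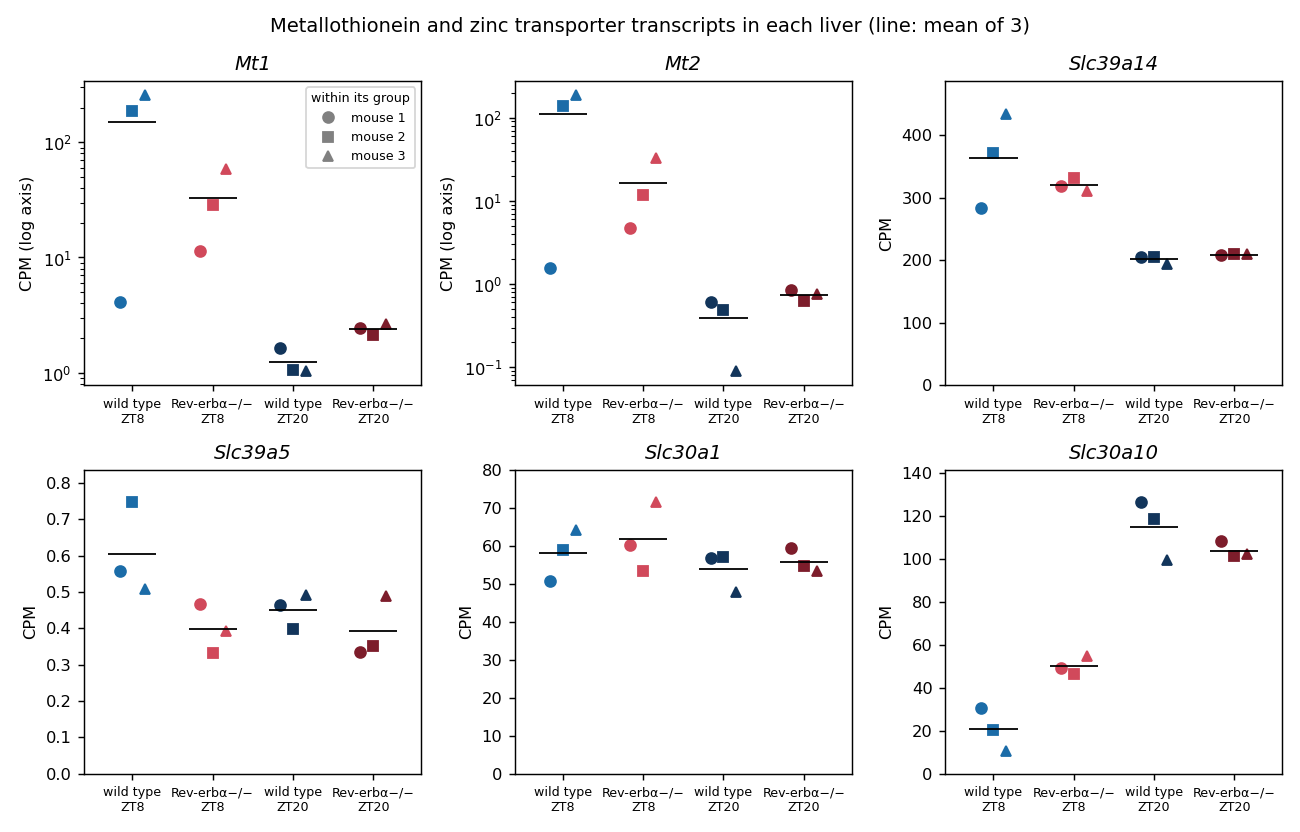
Level of each of the 6 transcripts in every liver, in CPM (*Mt1* and *Mt2* on a log axis, the other 4 from 0), with 3 symbols for the 3 mice of a group and a line at the group mean. *Mt1* and *Mt2* spread widely at ZT8 and were low at ZT20, *Slc39a14* was lower at ZT20, and *Slc30a10* was higher at ZT20.

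*Mt1* was present at 4.10, 186 and 258 CPM in wild-type mice 1, 2 and 3 at ZT8, which are 103, 3739 and 5081 reads. In *Rev-erbα-/-* mice at ZT8 it was at 11.3, 28.3 and 58.8 CPM. At ZT20 it was at 1.63, 1.06 and 1.03 CPM in wild-type and at 2.43, 2.10 and 2.67 CPM in *Rev-erbα-/-* mice. Wild-type mouse 1 at ZT8 was below all 3 knockout livers of the same time, whereas mice 2 and 3 were above them, so that the genotypes overlapped at ZT8. Every liver of ZT8 lay above every liver of ZT20.

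*Mt2* followed the same order of groups. At ZT8 the wild-type livers held 1.55, 138 and 188 CPM (39, 2768 and 3697 reads), and the knockout livers held 4.67, 11.8 and 32.4 CPM. At ZT20 the wild-type mice had 0.605, 0.487 and 0.0895 CPM, and the knockout mice had 0.839, 0.623 and 0.756 CPM. The third wild-type liver of ZT20 had 2 reads, under the detection floor, and the other 5 livers of ZT20 had between 11 and 20 reads.

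Of the importers, *Slc39a14* was high in all livers and *Slc39a5* was barely detected. *Slc39a14* (chromosome 14, 70303469 to 70351425, minus strand) encodes ZIP14, which takes up zinc, iron and manganese into hepatocytes and is known to be induced in inflammation. It was at 284, 372 and 434 CPM in wild-type and at 319, 331 and 311 CPM in *Rev-erbα-/-* mice at ZT8. At ZT20 it was at 205, 205 and 194 CPM in wild-type and at 208, 209 and 209 CPM in the knockout. All 6 livers of ZT8 were above all 6 of ZT20, and at ZT8 the knockout values lay within the range of the wild-type values.

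*Slc39a5* (chromosome 10, 128395931 to 128401229, minus strand) encodes ZIP5, an importer best known from pancreas and intestine. Summed over the 3 livers of a group, it gave 39 reads in wild-type and 23 in knockout livers at ZT8, and 30 and 28 reads at ZT20. As group levels these are 0.601 CPM (exact Poisson 95% interval 0.427 to 0.821), 0.399 CPM (0.253 to 0.598), 0.451 CPM (0.304 to 0.644) and 0.389 CPM (0.258 to 0.562), in that order. The intervals cover counting error only, and those of neighbouring groups overlapped. At ZT8 the single livers had 0.557, 0.747 and 0.508 CPM in wild-type and 0.467, 0.333 and 0.392 CPM in the knockout.

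The exporters differed from each other. *Slc30a1* (chromosome 1, 191906767 to 191913247, plus strand) encodes ZnT1, the zinc exporter of the plasma membrane, and is a known target of MTF1. Its 12 values lay between 48.0 and 71.5 CPM, and the 4 group means lay between 54.0 and 61.7 CPM with overlapping ranges. *Slc30a10* (chromosome 1, 185454848 to 185468762, plus strand) encodes a transporter that exports manganese from liver and intestine. It was at 30.8, 20.3 and 10.8 CPM in wild-type and at 49.4, 46.3 and 55.0 CPM in *Rev-erbα-/-* mice at ZT8. At ZT20 it was at 126, 118 and 99.5 CPM in wild-type and at 108, 101 and 102 CPM in the knockout. The wild-type values at ZT8 were the lowest of all, and each lay below the 3 knockout values of that time.

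Per kilobase of the main coding transcript, which allows levels of different genes to be compared, the order of the genes depended on the time. At ZT8 in wild-type, *Mt1* averaged 272 CPM per kilobase ± 239 (SD, n = 3), *Mt2* 214 ± 189, *Slc39a14* 73.7 ± 15.4, *Slc30a1* 11.1 ± 1.3, *Slc30a10* 3.54 ± 1.72 and *Slc39a5* 0.298 ± 0.062. At ZT20 in wild-type, *Slc39a14* was first at 40.9 ± 1.2, before *Slc30a10* at 19.7 ± 2.4, *Slc30a1* at 10.3 ± 1.0, *Mt1* at 2.26 ± 0.61 and *Mt2* at 0.770 ± 0.528. Both metallothioneins thus went from the highest mean levels among the 6 to levels below those of 3 of the transporters. The SD of both at ZT8 was close to their mean, and mouse 1 alone had them below *Slc39a14*.

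To ask which of these differences exceeded the spread between livers, all 14488 genes with enough reads were fitted together in edgeR (quasi-likelihood test, Benjamini-Hochberg adjustment, threshold 0.05). All 6 genes passed the filter on low counts. *Mt2* and *Slc39a5* passed it with few reads in some groups.

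Between ZT8 and ZT20 in wild-type mice, 4 of the 6 genes changed. *Mt1* fell by 6.91 on the log2 scale (SE 1.53, adjusted p = 0.0109), *Mt2* fell by 8.10 (SE 1.88, adjusted p = 0.0139) and *Slc39a14* fell by 0.85 (SE 0.11, adjusted p = 6.0e-05), and *Slc30a10* rose by 2.46 (SE 0.30, adjusted p = 0.000372). These correspond to levels 120-fold, 274-fold and 1.80-fold lower and 5.52-fold higher at ZT20. *Slc39a5* (log2 change -0.41, adjusted p = 0.399) and *Slc30a1* (-0.10, adjusted p = 0.540) did not pass. Of all genes tested, 27.7% passed in this comparison, 13.8% higher and 13.9% lower at ZT20. The 2 groups did not overlap for 5 of the 6 genes, against 42.3% of all genes.

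The wild-type fall of the metallothioneins rested on unequal livers. *Mt1* was 2.52-fold higher in mouse 1 of ZT8 than in the highest wild-type liver of ZT20, and 159-fold higher in mouse 3. Without mouse 1, the change was -7.50 (adjusted p = 0.000252) for *Mt1* and -8.69 (adjusted p = 0.000403) for *Mt2*. Without mouse 2 it was -6.72 (0.0278) and -7.89 (0.0333), and without mouse 3 it was -6.25 (0.0287) and -7.45 (0.0348), all adjusted p-values of edgeR. The *Mt2* call was lost when any wild-type liver of ZT20 was left out, with adjusted p = 0.0520, 0.0550 and 0.0508 without the first, the second and the third. In a fit on the 6 wild-type libraries alone, *Mt1* (adjusted p = 0.0703) and *Mt2* (adjusted p = 0.0793) did not pass. The calls of *Slc39a14* and *Slc30a10* held without any single library. The acute-phase genes moved with this comparison, since 10 of the 15 were lower at ZT20 in wild-type mice and 0 were higher.

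In *Rev-erbα-/-* mice, where the summed acute-phase level was 6124 to 6901 CPM at ZT8 and 6739 to 7984 CPM at ZT20, the same members went the same ways with smaller fitted changes. *Slc39a14* fell by 0.62 (SE 0.11, edgeR adjusted p = 0.00187) and *Slc30a10* rose by 1.05 (SE 0.28, adjusted p = 0.0356), which are 1.53-fold lower and 2.07-fold higher levels at ZT20. *Mt1* gave -3.78 (SE 1.36, adjusted p = 0.0988) and *Mt2* gave -4.46 (SE 1.77, adjusted p = 0.129), and neither passed in this fit. For both, all knockout livers of ZT8 were above all of ZT20. *Slc39a5* and *Slc30a1* gave -0.03 and -0.14 and did not pass. Of all genes, 17.5% passed here, 8.79% higher and 8.67% lower, and the groups did not overlap for 4 of the 6 members and 35% of all genes.

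Calls in the knockout also moved when wild-type libraries were left out of the fit, in which the 4 groups share an estimate of the spread. The cause was not tested. Without wild-type mouse 1 of ZT8, the edgeR adjusted p was 0.00636 for *Mt1* (log2 change -3.78) and 0.0119 for *Mt2* (-4.47). A fit on the 6 knockout libraries alone gave 0.0396 and 0.0470. Both genes also passed with DESeq2 on all 12 libraries and in edgeR without robust moderation. Their lowest adjusted p-values over all alternative edgeR and DESeq2 fits were 0.00294 and 0.00309. The *Slc30a10* call in the knockout was lost without any 1 of 9 of the 12 libraries, namely the second wild-type liver of ZT8, the first or second of ZT20, or any knockout liver, with log2 changes of at least 0.99 throughout and the highest adjusted p at 0.112. The *Slc39a14* call held without any single library.

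**Figure D2:**
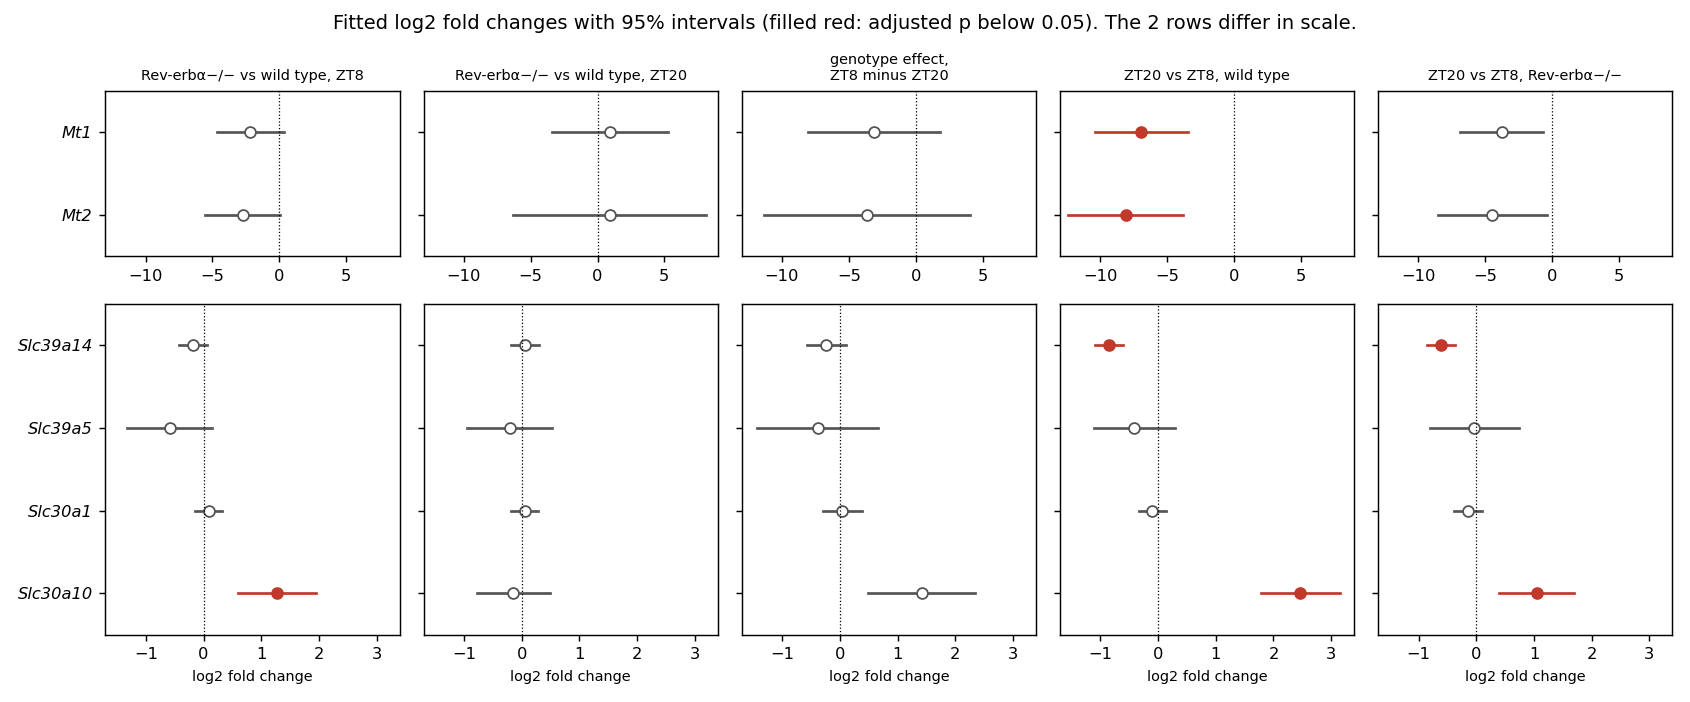
Fitted log2 fold change of each gene in the 5 comparisons, with its 95% interval, filled red where the edgeR adjusted p was below 0.05. The upper row (*Mt1*, *Mt2*) and the lower row (the 4 transporters) have different scales. The intervals of *Mt1* and *Mt2* span several log2 units, and those of *Slc39a14* and *Slc30a1* are below 1 log2 unit wide.

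Between the genotypes at ZT8, when *Nr1d1* is at its higher level, 1 of the 6 genes passed. *Slc30a10* was 2.42-fold higher in *Rev-erbα-/-* livers (log2 change 1.27, SE 0.30, edgeR adjusted p = 0.0330). The others did not pass, with log2 changes of -2.18 for *Mt1* (95% interval -4.70 to 0.33, adjusted p = 0.276), -2.73 for *Mt2* (-5.53 to 0.07, adjusted p = 0.223), -0.18 for *Slc39a14* (adjusted p = 0.362), -0.59 for *Slc39a5* (adjusted p = 0.333) and 0.09 for *Slc30a1* (adjusted p = 0.675). Of all genes, 8.45% passed at ZT8, 4.4% higher and 4.04% lower in the knockout. The genotypes did not overlap for 2 of the 6 genes, *Slc39a5* and *Slc30a10*, against 25.6% of all genes.

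The *Slc30a10* difference at ZT8 was close to the threshold. Its call was lost in 8 of the 12 fits that left out a library, without the second wild-type liver or any of the knockout livers of ZT8, the second wild-type liver of ZT20 or any knockout liver of ZT20. The log2 change stayed between 0.97 and 1.69 and the adjusted p reached at most 0.115 in these fits. In a fit on only the 6 libraries of ZT8 the adjusted p was 0.168. Without wild-type mouse 1 the change was 1.69 (adjusted p = 0.00112), and without mouse 3, the lowest, it was 0.97 (adjusted p = 0.00393).

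Leaving out wild-type mouse 1, the mouse with acute-phase genes at the level of the other groups, brought 3 more members past the threshold at ZT8. *Mt1* was then lower in the knockout, with a log2 change of -2.76 (edgeR adjusted p = 0.0166), as were *Mt2* with -3.32 (adjusted p = 0.0140) and *Slc39a14* with -0.34 (adjusted p = 0.0143). Set against mouse 1 by itself, without replicates, the 3 knockout livers had 2.76-fold to 14.3-fold as much *Mt1* and 3.01-fold to 20.9-fold as much *Mt2*. Without mouse 2 the genotype difference was -1.99 for *Mt1* (edgeR adjusted p = 0.465) and -2.53 for *Mt2* (adjusted p = 0.404), and without mouse 3 it was -1.53 (adjusted p = 0.549) and -2.08 (adjusted p = 0.458). Over all 12 fits without a library it kept its sign, from -2.92 to -1.53 for *Mt1* and from -3.73 to -2.08 for *Mt2*. In the acute-phase list, 10 of 15 genes were lower in the knockout at ZT8 and 0 were higher.

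At ZT20, 0 of the 6 genes passed between the genotypes, in edgeR and in DESeq2, and 0 had an unadjusted p below 0.05 in edgeR. Of all genes, 3.63% passed, 2.09% higher and 1.54% lower in the knockout. *Mt1* averaged 2.40 CPM ± 0.28 (SD, n = 3) in the knockout and 1.24 ± 0.34 in wild-type, with a log2 change of 0.95 (95% interval -3.37 to 5.28, adjusted p = 0.892). *Mt2* averaged 0.740 ± 0.109 and 0.394 ± 0.270 CPM (log2 change 0.90, adjusted p = 0.942). For *Mt1*, *Mt2* and *Slc39a14* the 3 knockout livers were all above the 3 wild-type livers, which was the case, in either direction, for 22.5% of all genes. *Slc39a14* differed by 0.05 (95% interval -0.19 to 0.29), *Slc30a1* by 0.05 (-0.19 to 0.28) and *Slc30a10* by -0.14 (-0.78 to 0.49). The summed reads of a group at ZT20 were few, 82 in wild-type against 172 in the knockout for *Mt1* and 26 against 53 for *Mt2*. As group levels *Mt1* was at 1.23 CPM (exact Poisson 95% interval 0.981 to 1.53) and 2.39 CPM (2.04 to 2.77), and these intervals did not overlap. Those of *Mt2*, 0.255 to 0.573 and 0.551 to 0.963 CPM, overlapped. Such intervals cover counting error only, and the 4 groups share an estimate of the spread in the fit. Over all alternative edgeR and DESeq2 fits the lowest adjusted p was 0.0525 for *Mt1* and 0.388 for *Mt2*.

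Whether the genotype effect differed between the times was tested as an interaction, which shares all 12 livers with the comparisons above. None of the 6 genes passed in edgeR, 1 had an unadjusted p below 0.05, and DESeq2 called 1, in both cases *Slc30a10*. Its genotype effect at ZT8 exceeded that at ZT20 by 1.42 on the log2 scale (SE 0.41, edgeR adjusted p = 0.0843, DESeq2 adjusted p = 0.0144). It passed in edgeR without wild-type mouse 1 (1.83, adjusted p = 0.00335) or mouse 3 of ZT8 (1.11, adjusted p = 0.00795). *Slc39a14* gave -0.23 (adjusted p = 0.463), and passed without wild-type mouse 1 (-0.39, adjusted p = 0.0382). *Mt1* gave -3.13 (adjusted p = 0.481) and *Mt2* gave -3.63 (adjusted p = 0.615). Of all genes, 5.88% passed, 3.05% with a positive and 2.83% with a negative difference.

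The wild-type mice at ZT8 were then compared one by one. Relative to mouse 1, mouse 2 had 45.4-fold and mouse 3 had 63.0-fold as much *Mt1*, and 88.9-fold and 121-fold as much *Mt2*. The pair took 0.000586% of the counted reads in mouse 1, 0.0332% in mouse 2 and 0.0457% in mouse 3. *Slc39a14* was 1.31-fold and 1.53-fold higher in mice 2 and 3 than in mouse 1, *Slc30a1* was 1.16-fold and 1.26-fold higher, and *Slc30a10* was 1.52-fold and 2.86-fold lower. *Slc39a5* was 1.34-fold higher in mouse 2 and 1.10-fold lower in mouse 3, from 10 to 15 reads per library. Each difference between single mice has no replicate.

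Acute-phase genes differed between these 3 mice in the same order as the metallothioneins. *Saa2*, a serum amyloid gene, was at 13.6, 4849 and 6137 CPM in mice 1, 2 and 3, and *Lcn2*, which encodes an iron-withholding protein of innate immunity, was at 3.30, 307 and 393 CPM. *Orm2* was at 9.51, 313 and 425 CPM and *Hp*, the haptoglobin gene, at 1944, 6316 and 7985 CPM. *Saa2* differed by a larger factor than *Mt2*, and *Lcn2* by about as much, 93.0-fold and 119-fold. Most of the 15 acute-phase genes differed by smaller factors than the metallothioneins. Between mice 3 and 1 their factors ran from 1.37 for *Fgg* to 450 for *Saa2*. *Fkbp5*, a glucocorticoid-induced gene, was at 35.1, 101 and 135 CPM. The sum of 10 glucocorticoid-induced genes was 3558, 4911 and 5502 CPM, most of its rise from *Pck1* at 1909, 3093 and 3578 CPM. Within that list *Fkbp5* differed most, and *Tsc22d3*, at 139, 109 and 113 CPM, and *Dusp1*, at 37.9, 34.2 and 35.8 CPM, were highest in mouse 1.

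**Figure D3:**
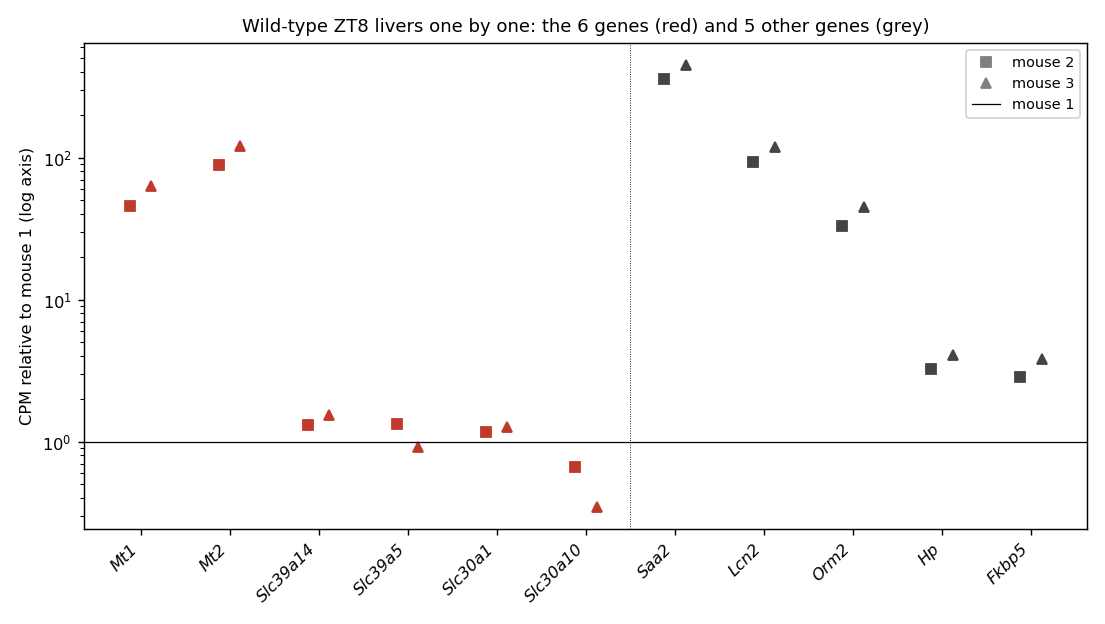
CPM of wild-type mice 2 (squares) and 3 (triangles) at ZT8 relative to mouse 1 (line at 1), on a log axis, for the 6 genes (red) and for 4 acute-phase genes and the glucocorticoid-induced *Fkbp5* (grey). *Mt1* and *Mt2* lie between 45.4-fold and 121-fold, *Slc39a14*, *Slc39a5* and *Slc30a1* lie between 0.91 and 1.53, and *Slc30a10* lies below 1, at 0.66 and 0.35.

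Markers of cell types differed between these 3 livers by smaller factors than the metallothioneins. The sum of the hepatocyte markers found was 70376, 54473 and 48351 CPM in mice 1, 2 and 3, and that of the Kupffer cell markers, the resident macrophages of liver, was 154, 189 and 222 CPM. The markers of bile duct cells summed to 37.9, 63.2 and 94.7 CPM, most of it *Spp1*, at 30.4, 57.7 and 89.9 CPM. The other markers of that list were lower in mouse 3 than in mouse 1. *Sox9* was at 5.17, 3.69 and 3.66 CPM and *Epcam* at 0.995, 1.05 and 0.712 CPM. *Krt19* was at 0.756, 0.349 and 0.305 CPM and *Krt7* at 0.517, 0.448 and 0.153 CPM. The neutrophil markers summed to at most 1.63 CPM. Genes of oxidative and heat stress, *Hmox1* among them, summed to between 452 and 464 CPM in all 3. Most of this sum was *Gclm*, at 252, 246 and 242 CPM, and *Txnrd1*, at 142, 150 and 154 CPM. Within the list *Srxn1* was at 47.8, 41.5 and 32.3 CPM and *Nqo1* at 6.05, 3.99 and 3.15 CPM in mice 1, 2 and 3. *Hspa1b* went the other way, at 2.87, 3.89 and 4.22 CPM. The part of cell composition in the metallothionein levels was not tested.

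In the knockout livers of ZT8, the metallothioneins also spread, by larger factors than the acute-phase sum. *Mt1* differed 5.19-fold between the lowest and the highest knockout liver, and *Mt2* 6.94-fold. Over the same 3 livers the acute-phase sum was 6124, 6688 and 6901 CPM, *Fkbp5* was at 50.9, 66.3 and 94.5 CPM and *Lcn2* was at 2.44, 3.22 and 4.99 CPM. Most of the acute-phase sum came from *Fgg*, at 3210 to 3782 CPM, and *Hp*, at 1658 to 1747 CPM. Of single acute-phase genes, *Saa2* was at 7.69, 9.50 and 12.2 CPM, and *Steap4* went the other way, at 121, 108 and 74.0 CPM. The part of the acute-phase response in this spread was not tested. At ZT20 the highest *Mt1* value was 1.58 times the lowest in wild-type and 1.27 times in the knockout.

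The ratio of *Mt1* to *Mt2* reads was higher at ZT20 than at ZT8. In the GENCODE vM21 annotation 432 bases (73.5%) of the *Mt2* exons overlap those of the antisense gene *Gm45774*, and 0 bases of the *Mt1* exons overlap another gene. *Gm45774* was not analysed here, and the part of this overlap in the *Mt2* counts, in its level per kilobase and in the ratio was not tested. At ZT8 it was 2.64, 1.35 and 1.37 in wild-type and 2.42, 2.40 and 1.81 in knockout livers. At ZT20 it was 2.69, 2.18 and 11.5 in wild-type and 2.90, 3.38 and 3.53 in knockout livers, where the value of 11.5 came from 23 and 2 reads (exact 95% interval 2.84 to 101). The lowest ratios belonged to the 2 livers with the most metallothionein reads. On the log2 scale the ratio was higher at ZT20 by 0.92, with means of 1.86 ± 0.85 and 0.95 ± 0.43 (SD, n = 6; exact permutation test within genotypes, two-sided, p = 0.02, where the smallest possible p was 0.005). Without the third wild-type liver of ZT20 the difference was 0.54 (exact p = 0.045), and without the second or the third wild-type liver of ZT8 it was 0.83 or 0.84 (exact p = 0.085 each). Between the genotypes the difference was 0.02 (exact permutation test, p = 0.99). These were 2 tests, and the Benjamini-Hochberg adjusted values were 0.04 for time and 0.99 for genotype.

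**Figure D4:**
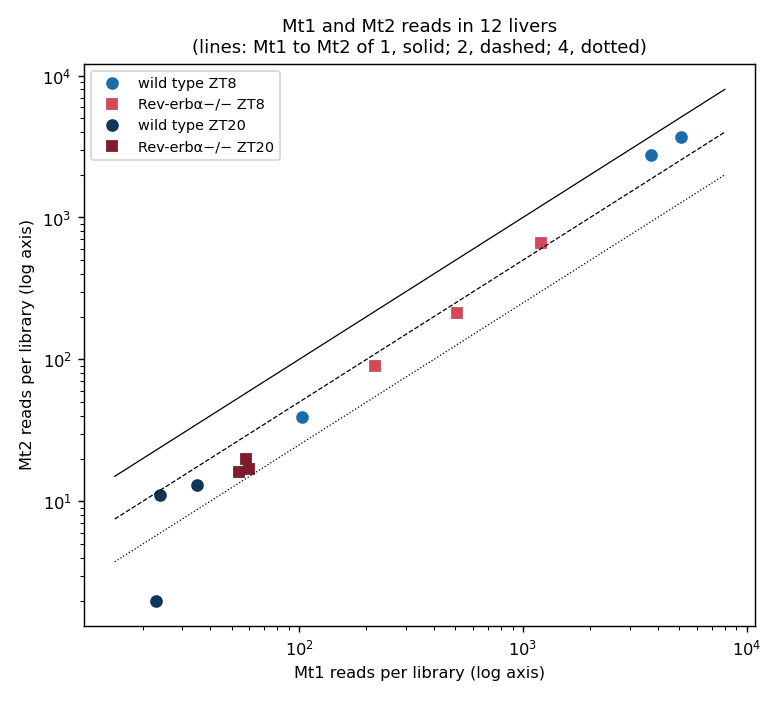
Reads of *Mt2* against reads of *Mt1* in the 12 livers, both on log axes, with circles for wild-type and squares for *Rev-erbα-/-* mice and lines at ratios of 1, 2 and 4. The 2 livers with the most reads, both wild-type of ZT8, lie near ratios of 1.35 and 1.37, and 1 wild-type liver of ZT20 lies beyond the line of 4, at 11.5.

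Across the 12 livers, *Mt1* and *Mt2* were the genes most like each other, with a Pearson r of 0.993 between their log2 CPM (prior count 2). These correlations describe 12 libraries that share groups, depth and the acute-phase difference, and carry no test. After *Mt2*, the genes most like *Mt1* were *Mup17* (0.978), *Zfp106* (0.973), *Akt1* (0.969) and *Slc38a9* (0.968), where *Mup17* belongs to a family of near-identical genes and its count is uncertain. *Slc39a14* had an r of 0.948 with *Mt1*, and *Slc30a10* had -0.876 with *Mt1* and -0.937 with *Slc39a14*. The genes most like *Slc30a10* were *Tubb2a* (0.991), *Psen2* (0.989), *Pnkd* (0.987), *Leap2* (0.982) and *Adck3* (0.981). Those most like *Slc39a14* were *Mup17* (0.982), *Trak2* (0.978), *Igfbp4* (0.977), *Tgds* (0.976) and *Stim1* (0.973).

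Within groups, that is over the deviations of each liver from its group mean, the genes nearest to *Mt1* were *Fkbp5* (r = 0.986), *Mt2* (0.978), *Tspan4* (0.977), *Mup17* (0.976) and *Sel1l3* (0.973). For *Mt2* they were *Mt1* (0.978), *Abhd2* (0.976), *Lcn2* (0.974), *Fkbp5* (0.968) and *Extl2* (0.968). *Slc39a14* deviated with *Mt1* (0.868) and against *Slc30a10* (-0.898), and its nearest named acute-phase gene was *Orm1* (0.971). These deviations were largest in the wild-type livers of ZT8, so that they describe mainly those 3 mice. *Slc30a1* (48.0 to 71.5 CPM) and *Slc39a5* (6 to 15 reads per library) had their nearest genes over levels at 0.866 (*Zfp53*) and 0.898 (*Tbc1d9b*).

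The other genes of zinc handling were taken from a list of 23, the metallothioneins *Mt3* and *Mt4*, the zinc sensor *Mtf1* and the remaining *Slc39a* and *Slc30a* genes. All 23 were counted and 17 had enough reads for a test. *Mt4* had 0 reads in all 12 libraries, and *Mt3* had 1 read, in a knockout liver of ZT8. The summed level of the list was between 503 and 564 CPM in all 12 livers. *Mtf1* was at 26.6 CPM ± 2.4 (SD, n = 3) in wild-type and 28.3 ± 3.5 in knockout livers at ZT8, and at 23.7 ± 1.7 and 21.2 ± 1.9 at ZT20. In wild-type mice 1, 2 and 3 of ZT8 it was at 29.3, 25.7 and 24.7 CPM, an order opposite to that of *Mt1*.

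Between the genotypes, 2 of the 17 changed at each time, where 8.45% of all genes passed at ZT8 and 3.63% at ZT20. At ZT8, 0 were higher and 2 were lower in the knockout, *Slc39a1*, an importer of the plasma membrane, by 0.33 on the log2 scale (SE 0.09, edgeR adjusted p = 0.0427) and *Slc39a2*, a related importer, by 0.86 (SE 0.20, adjusted p = 0.0140). The *Slc39a1* call was lost in 8 of 12 fits that left out a library, with adjusted p-values up to 0.195, and was kept without the first wild-type or the last knockout liver of ZT8 or the last liver of either group of ZT20. It was also lost in the fit on the 6 libraries of ZT8 (adjusted p = 0.104) and without robust moderation (0.0523), and that of *Slc39a2* was lost in the fit on the 6 libraries (0.0508). At ZT20, 2 were higher, *Slc39a2* by 1.34 (SE 0.21, adjusted p = 0.00182) and *Slc39a11*, a ZIP protein of intracellular membranes, by 0.39 (SE 0.08, adjusted p = 0.00805), and 0 were lower. The *Slc39a11* call was lost without the second wild-type liver of ZT20 (adjusted p = 0.0627). *Slc39a13* was higher by 0.49 at ZT20 and did not pass (edgeR adjusted p = 0.0699). It passed with DESeq2, with no filter, with only the 6 libraries of ZT20 and with the replicate number as a block. It also passed in edgeR without the first knockout liver of either time (lowest adjusted p = 0.0209). The median log2 change of the 17 was 0.03 at ZT8 and 0.04 at ZT20, and that of all genes was 0.00 at both times.

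*Slc39a2* was the gene of the list with the widest genotype difference, in opposite directions at the 2 times. In the GENCODE vM21 annotation 151 bases (4.38%) of the *Slc39a2* exons overlap those of *Mettl17*, and the part of this overlap in the counts was not tested. *Slc39a2* was at 7.04, 10.4 and 12.8 CPM in wild-type and at 4.62, 5.67 and 6.22 CPM in knockout livers at ZT8. At ZT20 *Slc39a2* was at 3.02, 2.70 and 2.37 CPM in wild-type and at 5.67, 7.25 and 7.65 CPM in the knockout. The knockout livers were all lower at ZT8 and all higher at ZT20, and the difference of the effects was -2.21 (SE 0.29, edgeR adjusted p = 0.000326), which held without any single library. At ZT8 the call of the genotype effect was lost without the second or the third wild-type liver or the first or second knockout liver, with adjusted p-values up to 0.0676.

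Over the day, 2 of the 17 were higher and 5 were lower at ZT20 in wild-type, and 1 was higher and 2 were lower in the knockout, where 27.7% and 17.5% of all genes passed. *Slc39a10* was higher in both, by 1.10 (edgeR adjusted p = 0.00348) and 0.84 (0.0240). *Slc39a8*, which encodes ZIP8, a relative of ZIP14 with a similar choice of metals, was higher by 0.48 in wild-type (adjusted p = 0.000246). *Slc39a2* fell in wild-type by 1.89 (1.1e-05), *Slc39a11* by 0.43 (0.000609), *Slc39a13* by 0.49 (0.0159), *Slc30a4* by 0.29 (0.0384) and *Slc30a9* by 0.22 (0.0189). In the knockout *Mtf1* fell by 0.42 (0.0116) and *Slc30a9* by 0.28 (0.00777). The *Slc30a4* call was lost in 6 of 12 fits without a library (adjusted p up to 0.190), namely without the second or the third wild-type liver of ZT8, any wild-type liver of ZT20 or the second knockout liver of ZT20. In wild-type, that of *Slc39a13* was lost without the second or the third liver of ZT8 or the first or second of ZT20 (up to 0.0615), and that of *Slc30a9* without the second of ZT8 or the second or the third of ZT20 (up to 0.0602). In the knockout, that of *Mtf1* was lost without the last liver of ZT8 or of ZT20 (up to 0.0533), and that of *Slc39a10* without the second or the third of ZT8 or the first of ZT20 (up to 0.0975). The other 5 calls of this paragraph held in all 12 fits.

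**Figure D5:**
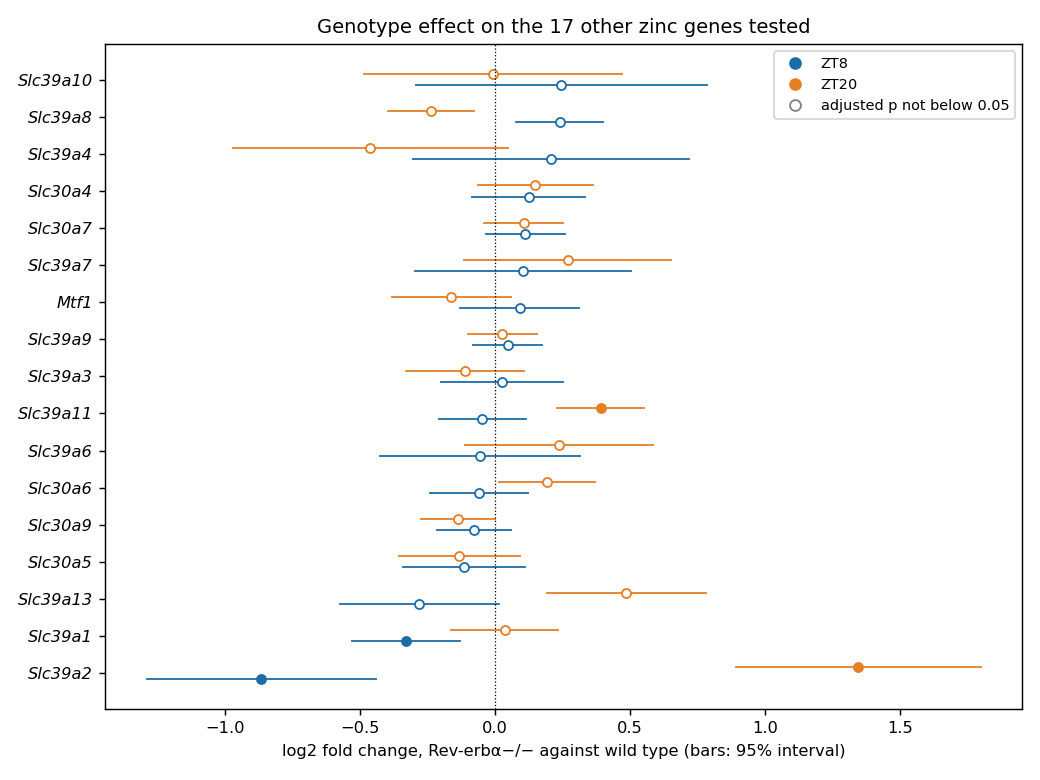
Log2 fold change between *Rev-erbα-/-* and wild-type livers at ZT8 (blue) and ZT20 (orange) for the 17 other zinc genes tested, with 95% intervals and filled symbols where the edgeR adjusted p was below 0.05. *Slc39a2* lies to the left at ZT8 (-0.86) and to the right at ZT20 (1.34), and most others lie within 0.5 of 0.

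Reads of overlapping genes could touch 3 of the 6 genes, since the counting ignored the strand and left out reads that fall on 2 counted genes. The overlap was widest for *Mt2*, as given above with its ratio to *Mt1*. In the annotation used here, the exons of *Slc30a10* overlap those of *Gm2061*, a noncoding gene of the opposite strand, over 533 bases (9.13%). *Gm2061* had 4 to 10 reads in wild-type livers of ZT8, 28 to 44 in the knockout and 65 to 88 at ZT20, so that its counts had the same order of groups as *Slc30a10*. The exons of *Slc30a1* overlap 468 bases (8.92%) of the antisense gene *1700034H15Rik*, which had 6 to 19 reads per library. The reads of each transporter and its neighbour cannot be told apart by strand in these data.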

How the data were processed

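Poly(A) RNA of 12 livers was sequenced by the authors (Illumina HiSeq, up to 75 bases). Alignment by the authors used TopHat and the mm10 genome. Reads with a single alignment were then assigned to symbols by HTSeq-count, in union mode, at a quality of 10 or more and ignoring the strand. The authors deposited these whole-number counts, 38926 symbols per library, without normalization, filtering or pooling. The 5 summary lines of each file were kept out of library sizes.

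Groups were taken from the labels. The 6 genes and all gene lists were chosen with earlier results of these data known. Genes with low counts were removed (filterByExpr, 14488 left), and TMM scaling with a robust quasi-likelihood fit of 4 group means over 12 libraries was carried out in edgeR 4.0.16 (R 4.3.3), with Benjamini-Hochberg adjustment over all genes in each of 5 contrasts. SEs are the log2 change divided by the square root of F. The code was tested on simulated data. Alternatives were DESeq2 1.42.0, median-of-ratios size factors, no filter, at least 10 counts in every library, the 6 libraries of a comparison, a replicate block, non-robust moderation and leaving out each library. The p-values cover the spread between these livers. Genes named are the 6, *Nr1d1*, the zinc list where called or at 0, examples of the other lists, overlapping genes and the 5 nearest by Pearson r. *Alb*, *Prss1*, *Cpa1*, *Amy2a5*, *Cela2a*, *Ctrb1*, *Ins2*, *Spp1*, *Sox9*, *Epcam*, *Krt19* and *Krt7* are cell type markers.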

Additional observations from a re-analysis of the deposited data

Results flagged for a closer look

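The genotype effect differed between ZT8 and ZT20 for 4 of the 17 other zinc genes tested by the interaction test of edgeR, where 5.88% of all genes passed. *Slc39a2* gave a difference of -2.21 on the log2 scale (adjusted p = 0.000326), from a lower level in the knockout at ZT8 to a higher level at ZT20. *Slc39a8* gave 0.48 (adjusted p = 0.0158), and its knockout livers lay between the wild-type livers of both times, with 34.9 CPM ± 1.9 (SD, n = 3) at ZT8 and 35.0 ± 2.8 at ZT20 against 29.6 ± 0.022 and 41.3 ± 2.0 in wild-type. *Slc39a11* gave -0.44 (adjusted p = 0.0243), with 36.4 ± 1.4 and 27.0 ± 2.3 CPM in wild-type at ZT8 and ZT20 and 35.3 ± 1.3 and 35.4 ± 1.4 in the knockout. *Slc39a13* gave -0.77 (adjusted p = 0.0302). The differences of *Slc39a2* and *Slc39a8* held in all 12 fits that left out a library, and those of *Slc39a11* and *Slc39a13* were lost in 6 each, with adjusted p-values up to 0.0803 and 0.0946. For *Slc39a11* these were the fits without the second liver of any of the 4 groups or the first liver of either group of ZT20. For *Slc39a13* they were the fits without the second or the third wild-type liver of ZT8, the first or second wild-type liver of ZT20, or the second or the third knockout liver of ZT20.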

How the results depend on the processing

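Most results kept their direction and their side of the threshold. Outside the fits that left out a library, 297 values stayed so, 8 passed the threshold only under the alternative and 9 no longer passed. With a library left out these numbers were 497, 8 and 63, and 8 values changed sign. Of the 6 genes, 1 passed at ZT8 in the reported fit, and 0 passed with no filter on low counts or with only the 6 libraries compared (0 to 4 with a library left out). For the interaction 0 passed, and 1 passed with DESeq2 or without robust moderation (0 to 2). For time in wild-type 4 passed, and 2 passed with only the 6 libraries. For time in the knockout 2 passed, against 4 with DESeq2, with only the 6 libraries or without robust moderation, and 1 with no filter (1 to 4). With at least 10 counts in every library, *Mt2* and *Slc39a5* could not be fitted. The cause of these shifts was not tested.

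Over all genes, 1224 passed at ZT8 and 769 with only the 6 libraries. Leaving out a library gave 542 to 1811 at ZT8, 239 to 656 at ZT20, 493 to 1260 for the interaction and 1566 to 2847 for time in the knockout. The fits without the first wild-type liver of ZT8 gave the highest count of each.

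With a library left out, the change of *Slc39a5* over time in the knockout ranged from -0.21 to 0.10. That of *Slc30a1* ranged from -0.028 to 0.19 between genotypes at ZT8, from -0.024 to 0.091 at ZT20 and from -0.076 to 0.14 for the interaction. The *Mt1* to *Mt2* ratio differed between genotypes by -0.20 to 0.40, changing sign in 7 of 12 fits, and between times by 0.54 to 1.14.

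Samples of different groups share replicate numbers. Deviations of same-numbered samples correlated between -0.083 and 0.074 (18 pairs, 0 over 0.1), so the numbers were not taken to pair the mice. With the replicate number as a block, 1, 0, 0, 4 and 2 of the 6 genes passed at ZT8, at ZT20, for the interaction and for time in wild-type and in the knockout, and 1210, 479, 831, 3889 and 2399 of all genes did. Among the 6 genes the block changed no call. Of the other zinc genes, *Slc30a4* lost its call for time in wild-type (log2 change -0.29, adjusted p = 0.0515). *Slc39a13* passed between genotypes at ZT20, as it did in other alternatives given above.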
